A study of Mus musculus with 18 samples.

Results

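The receptors for interleukins that B cells are known to respond to were followed across RNASeq libraries of mouse splenic B cells. The 9 genes were fixed by name, as the rows of the count tables with the Entrez gene number of *Il2ra*, *Il2rg*, *Il4ra*, *Il21r*, *Il10ra*, *Il6ra*, *Il7r*, *Il9r* and *Il5ra*, of 28096 genes in all, and all 9 passed the filter on low counts. B cells came from spleens of mice at least 8 weeks old, of strain C57BL/6 N in the labels, which were WT or Ubqln1-/-, the latter derived from ES cells from which exon 2 of *Ubqln1* had been deleted. *Ubqln1* encodes ubiquilin 1, a cytosolic chaperone that escorts client proteins to the proteasome. Cells isolated with a Miltenyi Biotec kit were left unstimulated (resting), or received for 4 hr either F(ab)2 anti-IgM at 10 μg/mL, which crosslinks the B cell receptor (BCR), or LPS of E. coli K12 at 20 μg/mL, a ligand of TLR4, and triplicate wells were pooled before RNA was purified. Each of the 6 combinations of genotype and condition had 3 libraries, called replicates 1, 2 and 3, with between 15368941 and 41072854 counts per library.

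Interleukin receptors of this kind are assembled from a chain that binds the ligand and a chain shared between receptors. The common gamma chain, encoded by *Il2rg*, pairs with the specific chains for IL-2, IL-4, IL-7, IL-9 and IL-21, the IL-6 receptor signals through the chain encoded by *Il6st*, and the IL-5 receptor through the common beta chain. These chains have no kinase of their own, and JAK kinases bound to them phosphorylate STAT transcription factors, and in B cells these signals act on survival, class switching and plasma cell differentiation.

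Promoter sequences, here the 250 bases before a transcript start, were taken from RefSeq (GRCm38.p6) for 8 of the 9 genes, *Il10ra* having no entry. A pair is shown because their mRNAs went opposite ways with anti-IgM. *Il2ra* was the member with the largest rise with LPS, and *Il9r* fell with anti-IgM and had the largest difference between genotypes of the 9. The *Il2ra* window is chr2:11642542-11642791 (+ strand), and the *Il9r* window is chr11:32200280-32200529 (− strand), which lies inside the annotated span of the gene, as the RefSeq start used is within it. Neither window overlaps an annotated exon. Capitals mark matches to the NF-kB consensus.
Il2ra: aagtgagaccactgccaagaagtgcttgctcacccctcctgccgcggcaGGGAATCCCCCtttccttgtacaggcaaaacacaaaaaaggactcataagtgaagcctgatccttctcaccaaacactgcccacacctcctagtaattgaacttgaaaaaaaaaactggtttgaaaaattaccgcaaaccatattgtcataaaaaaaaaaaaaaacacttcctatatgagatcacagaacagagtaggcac
Il9r: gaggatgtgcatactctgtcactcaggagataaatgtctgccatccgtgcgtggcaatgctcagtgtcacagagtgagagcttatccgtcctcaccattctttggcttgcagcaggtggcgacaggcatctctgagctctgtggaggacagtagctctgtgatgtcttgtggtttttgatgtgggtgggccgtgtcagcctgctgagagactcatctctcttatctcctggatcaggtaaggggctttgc
The capitals in *Il2ra* are 2 overlapping matches with first bases 201 and 200 bases before the start, and the *Il9r* window had none. Both strands were searched in all windows. The NF-kB consensus was found in 7.25% of 32851 windows of 250 bases, the STAT motif TTCNNNGAA in 7.02% and the AP-1 motif TGANTCA in 6.75%. Among the other members, *Il7r* held a STAT motif with its first base 142 bases before the start and *Il5ra* an AP-1 motif 99 bases before it, and *Il2rg*, *Il4ra*, *Il21r* and *Il6ra* held none of these motifs. A match describes the letters only and is not evidence of a bound factor.

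Levels are given as RPKM, reads scaled to gene width and library size, computed from the counts with the TMM-scaled library size. In resting WT B cells *Il2rg* was the highest, at 224 ± 16.0 RPKM (SD, n = 3), followed by *Il9r* at 107 ± 22.2 and *Il21r* at 107 ± 2.87. *Il10ra* at 57.9 ± 5.27 and *Il4ra* at 55.1 ± 3.98 came next. *Il6ra* at 13.0 ± 2.49, *Il2ra* at 8.74 ± 2.02 and *Il5ra* at 6.51 ± 2.22 were lower, and *Il7r* at 0.737 ± 0.161 was the lowest. In this order *Il9r* and *Il21r*, *Il10ra* and *Il4ra*, and *Il2ra* and *Il5ra* overlapped between libraries, and every other neighbour was separated in all 3 libraries. After anti-IgM the WT order became *Il2rg*, *Il21r*, *Il2ra*, *Il4ra*, *Il9r*, *Il10ra*, *Il6ra*, *Il5ra* and *Il7r*, where *Il2ra*, *Il4ra* and *Il9r* overlapped from neighbour to neighbour, as did the last 4. With LPS *Il2ra* stood between *Il9r* and *Il10ra* and overlapped with both.

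**Figure D1:**
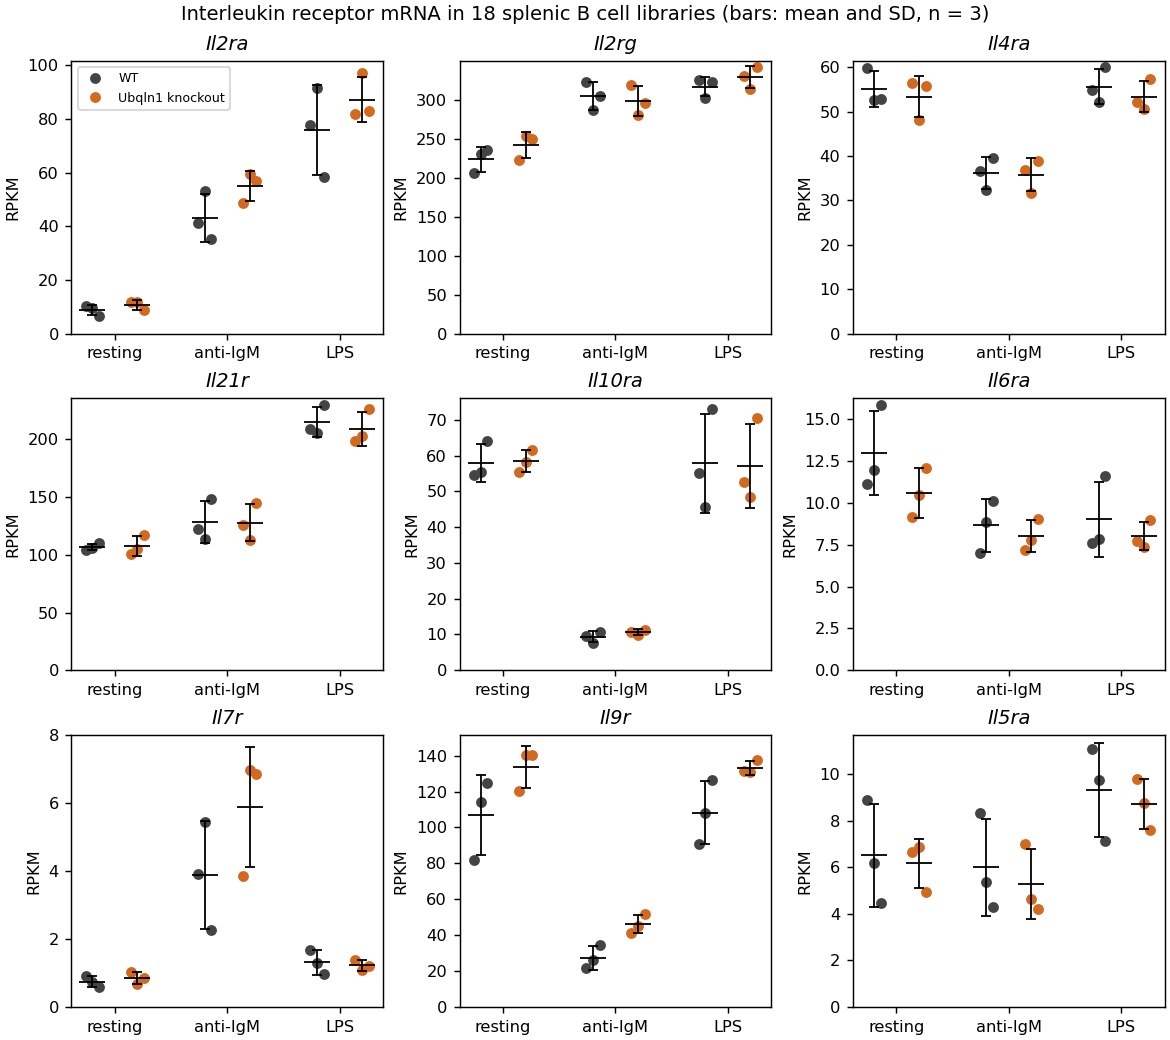
RPKM (linear axes from 0) of the 9 receptor mRNAs in each of 18 libraries, by condition, with WT in gray and Ubqln1-/- in orange; horizontal bars are means and vertical bars the SD of 3 libraries. *Il10ra* and *Il9r* drop with anti-IgM and stay at the resting level with LPS, *Il2ra* rises with both, and *Il7r* rises mostly with anti-IgM.

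The libraries were checked against their labels. *Ubqln1* itself ran from 62.2 to 92.0 RPKM in the 9 WT libraries and from 24.8 to 34.8 in the 9 Ubqln1-/- libraries, with log2 fold changes of −1.27, −1.42 and −1.44 in resting, anti-IgM and LPS cells; only exon 2 is deleted, so reads from the rest of the gene are still counted. The 8 B cell markers summed to between 1440 and 4930 RPKM in every WT library. The T cell genes *Cd3d*, *Cd3e*, *Cd3g* and *Cd4* did not exceed 0.312 RPKM, or 8 counts, in any library. In these bulk samples fewer cells of a type and less RNA per cell cannot be told apart.

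Anti-IgM changed most of the receptor mRNAs in both directions (edgeR quasi-likelihood test, Benjamini-Hochberg adjusted p under 0.05 over 14161 genes). In WT B cells 4 of 9 rose (*Il2ra*, *Il2rg*, *Il21r* and *Il7r*), against 32.4% of all genes tested, and 4 of 9 fell (*Il4ra*, *Il10ra*, *Il6ra* and *Il9r*), against 32.2%. In Ubqln1-/- B cells the same 4 rose, against 32.9%, and 3 fell (*Il4ra*, *Il10ra* and *Il9r*), against 32.4%. With the replicate number as a block *Il6ra* was also called lower in Ubqln1-/-, so that 4 rose and 4 fell in each genotype, against 35.1% and 34.9% of all genes in WT and 35.4% and 35.3% in Ubqln1-/-. With the study's thresholds, an absolute log2 fold change over 2 and an adjusted p under 0.001, *Il10ra*, *Il2ra* and *Il7r* were called in each genotype, 3 of 9 against 3.76% of all genes in WT and 3.64% in Ubqln1-/-. An adjusted p under 0.05 with an absolute log2 fold change over 1 was met by 4 of 9 in each genotype, against 20.6% and 20.3%. The median log2 fold change of the 9 was −0.10 in WT and −0.22 in Ubqln1-/-, beside −0.0096 and −0.0175 over all genes.

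LPS changed fewer of them than anti-IgM did. Of all 14161 genes, LPS changed 8673 in WT and 8599 in Ubqln1-/-, and anti-IgM 9146 and 9251. In WT B cells *Il2ra*, *Il2rg*, *Il21r* and *Il7r* rose, 4 of 9 against 31.2% of all genes, and *Il6ra* fell, 1 of 9 against 30.1%. In Ubqln1-/- B cells *Il2ra*, *Il2rg* and *Il21r* rose, 3 of 9 against 30.6%, and 0 fell, against 30.2%, with 4 of 9 at an unadjusted p under 0.05, against 64.4%. With the replicate block *Il5ra* was also called higher in both genotypes and *Il6ra* lower in Ubqln1-/-. That made 5 higher and 1 lower in WT, against 34.0% and 34.0% of all genes, and 4 higher and 1 lower in Ubqln1-/-, against 33.3% and 33.6%. *Il2ra* alone passed the study's thresholds in each genotype, 1 of 9 against 1.80% in WT and 1.74% in Ubqln1-/-. With an absolute log2 fold change over 1, 2 were called in WT (*Il2ra* and *Il21r*), against 15.8%, and 1 in Ubqln1-/-, against 15.9%. Both comparisons use the same resting libraries. Without WT LPS replicate 1, WT LPS replicate 2 or WT resting replicate 3, the WT count dropped to 3 (*Il2ra*, *Il2rg* and *Il21r*).

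Between the stimuli, the difference was tested directly. In WT, 5 of 9 were higher with LPS than with anti-IgM (*Il10ra*, *Il9r*, *Il2ra*, *Il21r* and *Il4ra*), against 17.4% of all genes, and 1 was lower (*Il7r*), against 15.0%. In Ubqln1-/-, 6 of 9 were higher, *Il5ra* being added, against 16.8%, and *Il7r* was again lower, 1 of 9 against 14.5%. With the replicate block *Il5ra* was called in WT too, giving 6 of 9 higher in each genotype, against 22.4% of all genes in WT and 22.2% in Ubqln1-/-, and 1 lower, against 20.4% and 19.6%. *Il10ra*, *Il7r* and *Il9r* had an absolute log2 difference over 1 in each genotype, 3 of 9 against 9.42% and 8.73%.

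**Figure D2:**
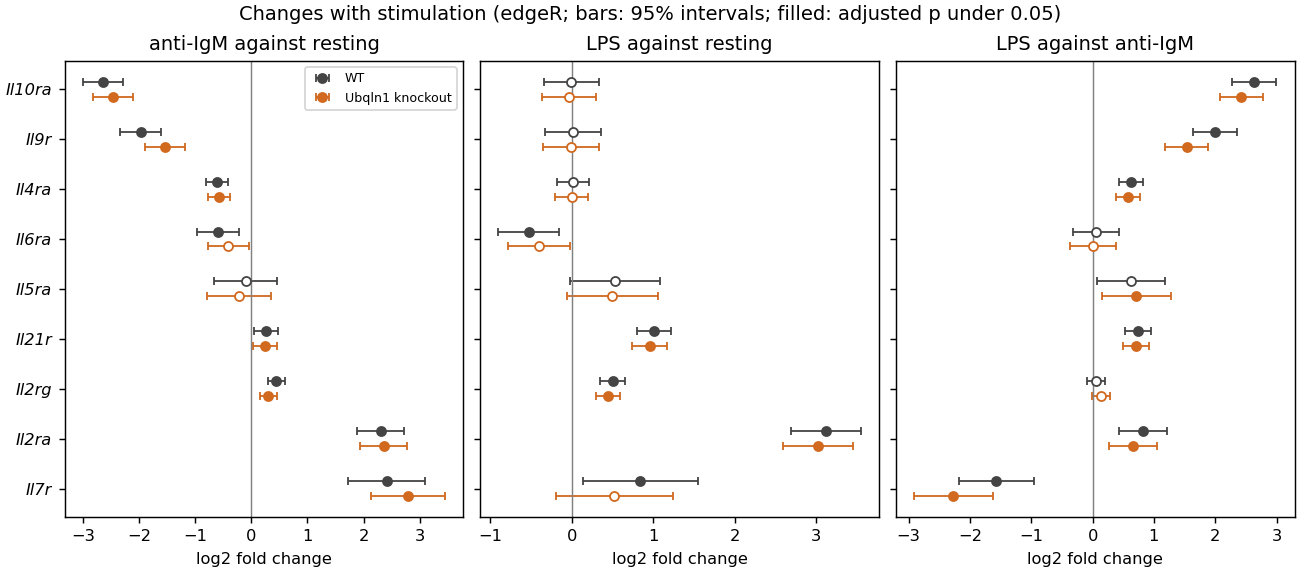
log2 fold change (horizontal axis) of each receptor for 3 comparisons, WT in gray and Ubqln1-/- in orange, with 95% intervals from edgeR; filled points have an adjusted p under 0.05. *Il10ra* fell by 2.64 with anti-IgM in WT and was at −0.0036 with LPS, whereas *Il2ra* rose by 2.30 and 3.12.

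*Il10ra* (chr9:45253837-45269149; GRCm38, as all coordinates here) encodes the ligand-binding chain of the receptor for IL-10, a cytokine that limits inflammation and promotes antibody secretion. Resting WT libraries had 54.5, 55.3 and 64.0 RPKM. After anti-IgM they had 9.49, 7.69 and 10.8 RPKM, and after LPS 55.1, 45.5 and 72.9. All anti-IgM libraries were far below all resting and LPS libraries, which overlapped. In Ubqln1-/- cells the values were 55.4, 58.1 and 61.6 RPKM at rest, 10.8, 9.72 and 11.4 with anti-IgM and 52.5, 48.3 and 70.6 with LPS, the same arrangement. *Il10ra* fell with anti-IgM by 2.64 on the log2 scale in WT (SE 0.171, edgeR adjusted p = 2.1e-09) and by 2.46 in Ubqln1-/- (SE 0.169, adjusted p = 4.0e-09), to 16.1% and 18.2% of the resting mean. With LPS the log2 fold changes were −0.0036 (95% interval −0.34 to 0.33) and −0.032 (−0.37 to 0.30). LPS cells were 2.64 above anti-IgM cells in WT and 2.43 in Ubqln1-/- (adjusted p = 4.2e-09 and 1.0e-08). The gene overlaps *Mir7086*, and the library kit does not mark strand.

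*Il9r* (chr11:32187544-32205283, − strand) encodes the chain that binds IL-9, a product of T helper cells and innate lymphoid cells. Resting WT libraries had 82.1, 114 and 125 RPKM. With anti-IgM they had 21.6, 25.9 and 34.5 RPKM, and with LPS 90.7, 108 and 126. All anti-IgM libraries were below all others of their genotype. Ubqln1-/- libraries had 120.1, 140.5 and 140.4 RPKM at rest, 41.4, 45.2 and 51.5 with anti-IgM, and 131, 131 and 138 with LPS. *Il9r* fell with anti-IgM by 1.97 in WT (SE 0.170, adjusted p = 3.7e-08) and by 1.54 in Ubqln1-/- (SE 0.167, adjusted p = 5.1e-07) on the log2 scale. LPS gave 0.017 (95% interval −0.33 to 0.36) and −0.0057 (−0.35 to 0.34). LPS cells were above anti-IgM cells by 1.99 and 1.53 (adjusted p = 9.6e-08 and 1.8e-06). A pseudogene, *Gm12109*, overlaps *Il9r*, and reads of the 2 could not be separated here.

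*Il4ra* (chr7:125552271-125579474, + strand) encodes the chain that binds IL-4, which drives class switching to IgE and IgG1. WT libraries had 59.7, 52.7 and 52.9 RPKM at rest, 36.7, 32.3 and 39.5 with anti-IgM, and 54.8, 52.1 and 59.97 with LPS. The Ubqln1-/- values were 56.4, 48.1 and 55.7, then 36.8, 31.6 and 38.9, then 52.2, 50.6 and 57.3. The anti-IgM libraries were the lowest in both genotypes, and the resting and LPS libraries overlapped. *Il4ra* fell with anti-IgM by 0.61 in WT (SE 0.094, adjusted p = 2.6e-05) and by 0.58 in Ubqln1-/- (SE 0.094, adjusted p = 4.5e-05). With LPS it was at 0.014 (95% interval −0.18 to 0.21) and −0.0020 (−0.20 to 0.20).

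Beside these decreases, 7 of 8 B cell markers fell with anti-IgM in each genotype, against 32.2% of all genes in WT and 32.4% in Ubqln1-/-. Among them were *Cd79a*, *Ms4a1* and *Pax5*, and the list median was −1.62 in WT. The other marker, *Cr2*, was called higher in WT, and in both genotypes with the replicate block. The summed level of the 8 ran from 4250 to 4930 RPKM in resting WT, from 1440 to 1790 with anti-IgM and from 3190 to 3840 with LPS. The part of this in the receptor decreases was not tested. Across the 18 libraries log2 CPM of *Il10ra* correlated with that of *Il4ra* (Pearson's r = 0.959) and *Il9r* (r = 0.948) and inversely with that of *Il7r* (r = −0.915), as a description, since libraries of a condition share the stimulus.

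*Il2ra* (chr2:11642792-11693194, + strand) encodes CD25, the alpha chain that raises the affinity of the IL-2 receptor and a classic activation marker. WT libraries had 10.3, 9.51 and 6.45 RPKM at rest. With anti-IgM they had 41.1, 53.0 and 35.1 RPKM, and with LPS 77.8, 91.5 and 58.4. The 3 conditions did not overlap. Ubqln1-/- libraries had 11.8, 11.8 and 8.61 RPKM at rest, 48.8, 59.5 and 56.8 with anti-IgM and 81.7, 97.0 and 82.9 with LPS. *Il2ra* rose with anti-IgM by 2.30 in WT (SE 0.198, adjusted p = 3.6e-08) and 2.36 in Ubqln1-/- (SE 0.197, adjusted p = 2.7e-08), and with LPS by 3.12 (SE 0.203, adjusted p = 4.6e-09) and 3.02 (SE 0.201, adjusted p = 5.3e-09), which is 8.69-fold in WT and 8.14-fold in Ubqln1-/-. LPS exceeded anti-IgM by 0.82 in WT and 0.67 in Ubqln1-/- (adjusted p = 0.0024 and 0.011); without Ubqln1-/- anti-IgM replicate 1 the latter was 0.59 (adjusted p = 0.051). The lncRNA *Gm39760* overlaps *Il2ra*.

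*Il2rg* (chrX:101264385-101268255, − strand), the common gamma chain, was the most abundant member in every group. WT libraries had 205.5, 230.4 and 235 RPKM at rest, 323, 287 and 306 with anti-IgM, and 325, 303 and 323 with LPS. Both stimuli lay above rest in all libraries and overlapped with each other. Ubqln1-/- libraries had 223, 253 and 249.5 RPKM at rest, 319, 280.1 and 297 with anti-IgM, and 331, 314 and 342 with LPS, the same arrangement. *Il2rg* rose by 0.45 with anti-IgM in WT (SE 0.072, adjusted p = 3.6e-05), by 0.31 in Ubqln1-/- (SE 0.071, adjusted p = 0.0013), and by 0.50 and 0.45 with LPS (adjusted p = 1.4e-05 and 4.9e-05). Between stimuli the difference was 0.056 (95% interval −0.095 to 0.21) in WT and 0.14 (−0.011 to 0.29) in Ubqln1-/-.

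*Il21r* (chr7:125603252-125634397, + strand), the neighbour of *Il4ra* on the chromosome, encodes the receptor for IL-21, a T follicular helper cytokine for germinal center and plasma cells. WT libraries had 104, 106 and 109.9 RPKM at rest, 123, 114 and 149 with anti-IgM, and 209, 206 and 229.5 with LPS. Libraries of Ubqln1-/- cells had 101, 105 and 117 RPKM at rest, 126, 113 and 145 with anti-IgM, and 199, 203 and 226 with LPS. All LPS libraries were above all others. *Il21r* rose with LPS by 1.01 in WT (SE 0.101, adjusted p = 3.2e-07) and by 0.96 in Ubqln1-/- (SE 0.101, adjusted p = 5.8e-07). The rise with anti-IgM was 0.27 in WT (adjusted p = 0.028) and 0.25 in Ubqln1-/- (adjusted p = 0.040), and the Ubqln1-/- anti-IgM and resting libraries overlapped. This smaller rise was no longer called without WT anti-IgM replicate 3 (0.15, adjusted p = 0.20), WT resting replicate 1 (0.25, adjusted p = 0.082) or WT resting replicate 2 (0.27, adjusted p = 0.054) in WT. The same was found without Ubqln1-/- anti-IgM replicate 1 or 3 (0.27 and 0.16, adjusted p = 0.052 and 0.19) or Ubqln1-/- resting replicate 1 or 2 (0.21 and 0.24, adjusted p = 0.13 and 0.084). These fits had no replicate block. With all libraries and the block, edgeR gave 0.26 in WT (adjusted p = 5.4e-04) and 0.24 in Ubqln1-/- (adjusted p = 8.6e-04). LPS exceeded anti-IgM by 0.74 and 0.71 (adjusted p = 1.8e-05 and 3.3e-05).

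*Il7r* (chr15:9506159-9529941, − strand) encodes the alpha chain of the IL-7 receptor, which is needed by B cell precursors and T cells and is low on mature B cells. Resting WT libraries had 0.896, 0.740 and 0.574 RPKM (45, 61 and 37 counts). With anti-IgM they had 3.91, 5.43 and 2.26 RPKM, and with LPS 1.67, 1.29 and 0.959. Each anti-IgM library was above every resting and LPS library of its genotype. Ubqln1-/- libraries had 1.03, 0.669 and 0.842 RPKM at rest, 3.84, 6.96 and 6.84 with anti-IgM and 1.39, 1.08 and 1.21 with LPS. *Il7r* rose with anti-IgM by 2.41 in WT (SE 0.324, adjusted p = 5.4e-06) and 2.79 in Ubqln1-/- (SE 0.313, adjusted p = 7.3e-07). LPS stood below anti-IgM in both genotypes, with log2 differences of −1.57 in WT (adjusted p = 4.3e-04) and −2.27 in Ubqln1-/- (adjusted p = 1.8e-05).

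The LPS rise of *Il7r* was less firm. It was 0.84 in WT (SE 0.336, adjusted p = 0.039) and 0.52 in Ubqln1-/- (SE 0.341, adjusted p = 0.20). With limma the WT adjusted p was 0.14, with scaling by total count alone 0.060, and without WT LPS replicate 1 or 2 or WT resting replicate 2 or 3 it was 0.15, 0.070, 0.082 and 0.13. T cells also carry *Il7r* and *Il2ra*. Of the 10 T cell markers 3 were tested. The summed level of all 10 ran from 1.41 to 2.22 RPKM in resting WT, 7.52 to 11.8 with anti-IgM and 1.38 to 1.49 with LPS. With anti-IgM most of this was *Cd5*, a gene that B cells also express, at 7.35 ± 2.18 RPKM after 0.740 ± 0.292 at rest (SD, n = 3). At rest *Cd28*, a costimulatory receptor of T cells, was as high, at 0.794 ± 0.273 RPKM in WT. *Cd28* was called higher with anti-IgM in Ubqln1-/-, at 0.989 ± 0.134 RPKM after 0.464 ± 0.0924, and was not called in WT, at 1.12 ± 0.103. The remaining tested marker, *Cd8a*, did not exceed 0.349 RPKM in any library and was called lower with anti-IgM in Ubqln1-/-. With LPS *Cd8a* was called higher and *Cd28* lower in each genotype. The defining genes of the CD3 complex and *Cd4* stayed at or near 0, with *Cd3g* at 0 in 8 of 18 libraries and *Cd3e* in 11.

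*Il6ra* (chr3:89869324-89913196, − strand) encodes the IL-6-binding chain. WT libraries had 11.1, 12.0 and 15.8 RPKM at rest, 6.98, 8.88 and 10.1 with anti-IgM and 7.62, 7.81 and 11.6 with LPS. The Ubqln1-/- values were 9.15, 10.5 and 12.1, then 7.16, 7.78 and 9.03, then 7.71, 7.36 and 8.96. The resting libraries were the highest in each genotype, with an overlap in WT between rest and LPS. In WT *Il6ra* fell by 0.59 with anti-IgM (SE 0.176, adjusted p = 0.0077) and by 0.53 with LPS (SE 0.175, adjusted p = 0.014). In Ubqln1-/- the log2 fold changes were −0.41 (adjusted p = 0.053) and −0.40 (adjusted p = 0.061), and with the replicate block −0.40 in each case (adjusted p = 1.8e-04 and 2.5e-04), where both pass the threshold. With anti-IgM limma and DESeq2 also called it in Ubqln1-/- (adjusted p = 0.049 and 0.043), as DESeq2 did with LPS (adjusted p = 0.045).

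Without WT resting replicate 3 the *Il6ra* decreases in WT were −0.42 (adjusted p = 0.061) with anti-IgM and −0.36 (adjusted p = 0.11) with LPS, and the latter was also lost without WT LPS replicate 1 or 2 (−0.43 and −0.44, adjusted p = 0.066 and 0.069). These fits had no replicate block. With all libraries and the block, edgeR gave −0.58 and −0.54 in WT (adjusted p = 2.8e-06 and 6.6e-06). Myeloid cells also carry *Il6ra*. The 10 myeloid and dendritic cell markers, 6 of them tested, summed to between 12.5 and 17.6 RPKM in resting WT, 7.14 and 10.4 with anti-IgM and 5.40 and 6.68 with LPS. In WT 2 of 6 were lower with anti-IgM and 4 of 6 with LPS, against 32.2% and 30.1% of all genes. *Ly6g* was at 0 in all WT libraries, whereas among the 18 libraries *Adgre1* reached up to 12.2 RPKM and *Lyz2* up to 6.45. With the replicate block 4 of 6 were lower and *Cd14* was higher with anti-IgM in WT, and 5 of 6 were lower with LPS. The block called 34.9% and 34.0% of all genes lower. The part of these markers in the *Il6ra* result was not tested. The lncRNA *Gm46811* overlaps *Il6ra*.

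*Il5ra* (chr6:106710375-106749037, − strand) encodes the IL-5-binding chain, known from B-1 cells and eosinophils. WT libraries had 8.88, 6.18 and 4.48 RPKM at rest, 8.34, 5.38 and 4.30 with anti-IgM and 11.1, 9.77 and 7.12 with LPS. Libraries of Ubqln1-/- cells had 6.67, 6.88 and 4.96, then 7.02, 4.65 and 4.21, then 9.79, 8.76 and 7.61. In WT all 3 conditions overlapped, while within each WT replicate number the LPS library was the highest. The LPS change was 0.53 in WT (SE 0.262, adjusted p = 0.091) and 0.50 in Ubqln1-/- (SE 0.265, adjusted p = 0.12), and with the replicate block it was 0.54 and 0.50 with adjusted p = 3.6e-04 and 9.5e-04. Leaving out single libraries moved the WT value between 0.32 and 0.80, and it was called without WT resting replicate 1 (0.80, adjusted p = 0.023) or WT LPS replicate 3 (0.69, adjusted p = 0.042). Against anti-IgM, LPS was higher by 0.71 in Ubqln1-/- (adjusted p = 0.049) and stood at 0.63 in WT (adjusted p = 0.076; with the block 0.65, adjusted p = 1.1e-04). The WT difference was called without WT anti-IgM replicate 1 (0.94, adjusted p = 0.014) or WT LPS replicate 3 (0.79, adjusted p = 0.041). The Ubqln1-/- call of 0.71 lay at the threshold, and leaving out single libraries gave adjusted p up to 0.18. Anti-IgM gave −0.10 (95% interval −0.67 to 0.46) and −0.22 (−0.78 to 0.35).

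Beside *Il5ra*, the 5 B-1 cell markers summed to between 41.2 and 65.5 RPKM in resting WT. The sum was between 36.1 and 48.2 with anti-IgM and between 28.3 and 35.3 with LPS. In WT *Ahnak*, *Bhlhe41* and *Spn* fell with each stimulus, 3 of 5, against 32.2% of all genes with anti-IgM and 30.1% with LPS. *Cd5* rose with anti-IgM and *Zbtb32* with LPS, 1 of 5 each, against 32.4% and 31.2%. In Ubqln1-/- the same markers were called with LPS. With anti-IgM *Cd5* rose and *Ahnak* fell there, and *Bhlhe41* and *Spn* were called lower only with the replicate block. The 6 NK cell markers, 2 of them tested, summed to at most 3.21 RPKM in any library. Their part in the receptor results was not tested.

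Comparison of Ubqln1-/- with WT B cells asked whether loss of *Ubqln1* changes the receptors. In the fit without the replicate block 0 of 9 were called in resting cells, against 0.0565% of all genes, 0 in anti-IgM cells, against 0.0989%, and 0 in LPS cells, against 0.0424%. At an unadjusted p under 0.05 there were 0, 2 (*Il7r* and *Il9r*) and 0 of 9, against 4.22%, 5.14% and 3.93% of all genes. DESeq2 and the fit with the replicate block each called *Il9r* in anti-IgM cells and 0 members in the other conditions, and limma called 0; of all genes the block called 0.346%, 0.664% and 0.883% in resting, anti-IgM and LPS cells. The difference of the response between genotypes was called for 0 of 9 with either stimulus, against 0% of all genes each time. DESeq2, limma and the replicate block also called 0 members and 0 genes. At an unadjusted p under 0.05 the fit without the block had 0 of 9 (140 and 220 of all genes, 0.989% and 1.55%). With the block 377 and 430 of all genes were under that unadjusted threshold, and the members among them were not counted.

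*Il9r* was higher in Ubqln1-/- than in WT for every replicate number in every condition, 3 of 3 each time. The share of all genes with this pattern, or with the separation of libraries given next, was not counted. In anti-IgM cells the Ubqln1-/- libraries (41.4 to 51.5 RPKM) lay above all WT libraries (21.6 to 34.5). The same held with LPS (131 to 138 against 90.7 to 126), and at rest the genotypes overlapped. With anti-IgM the log2 difference was 0.76 (SE 0.166, 95% interval 0.40 to 1.11), with an unadjusted p of 3.1e-04 and an adjusted p of 0.15 from edgeR. With the replicate block it was 0.77 (SE 0.091, adjusted p = 3.2e-04) and with DESeq2 0.75 (adjusted p = 0.0047). Over 8 other settings the adjusted p ran from 3.2e-04 to 0.47 and the log2 difference from 0.75 to 0.78, and leaving out each library gave 0.61 to 0.95. At rest the difference was 0.32 (SE 0.163, adjusted p = 1.00; 0.34 and 0.12 with the block) and with LPS 0.30 (SE 0.163, adjusted p = 1.00; 0.32 and 0.13 with the block). The anti-IgM response itself differed by 0.43 between genotypes (SE 0.232, adjusted p = 1.00). With the replicate block this difference was also 0.43, with an SE of 0.125, and was again not called. The larger genotype difference with anti-IgM than at rest thus did not pass its own test after adjustment.

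For the other 8 receptors the libraries of the genotypes overlapped in every condition. *Il2ra*, like *Il9r*, was higher in Ubqln1-/- than in WT for all 9 pairs of libraries with the same replicate number and condition, and it was called in no condition with or without the replicate block. How many of all genes have such signs was not counted. *Il2rg* was higher in 3 of 3 pairs at rest and with LPS and in 0 of 3 with anti-IgM, *Il10ra* was higher in 3 of 3 with anti-IgM, and the remaining 5 receptors were higher in 2 to 5 of the 9 pairs. *Il7r* with anti-IgM was at 0.59 (95% interval 0.020 to 1.17, adjusted p = 0.95). The intervals were narrowest for *Il2rg*, from −0.040 to 0.26 at rest, −0.18 to 0.12 with anti-IgM and −0.097 to 0.20 with LPS. *Il10ra* ran from −0.16 to 0.55 with anti-IgM and *Il2ra* from −0.039 to 0.74. *Il5ra* and *Il7r* had the widest, from −0.63 to 0.50 and −0.55 to 0.98 at rest.

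**Figure D3:**
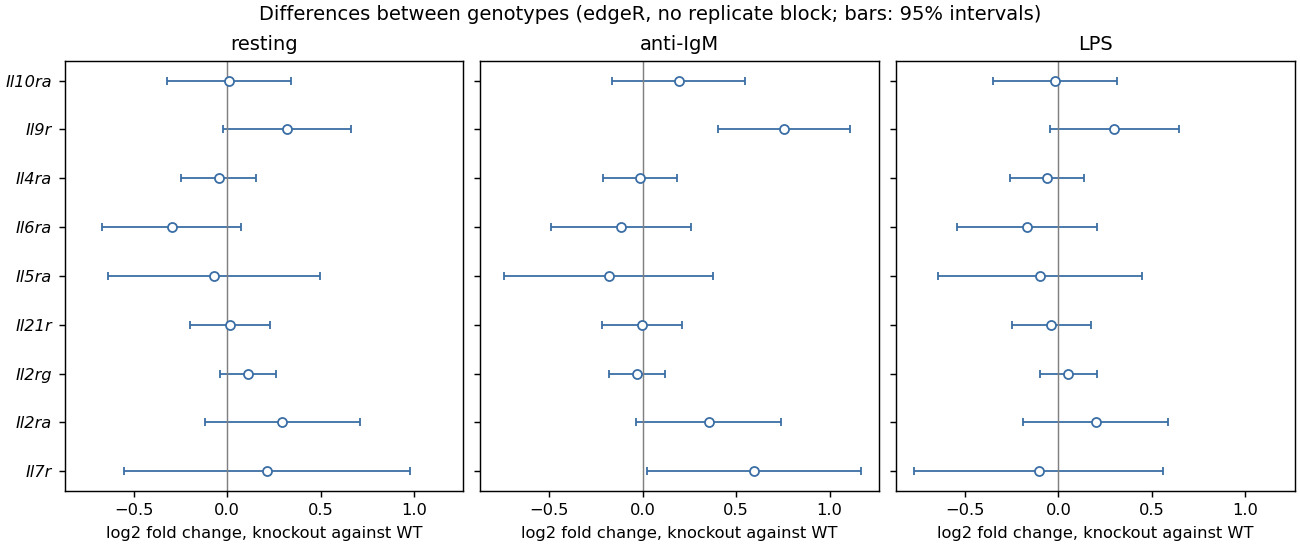
log2 fold change of Ubqln1-/- against WT (horizontal axis) for each receptor in 3 conditions, from edgeR without the replicate block, with 95% intervals; open points, as 0 of 9 passed the adjusted threshold. *Il9r* with anti-IgM stands at 0.76, and 7 of the other 8 intervals in that panel include 0, the exception being *Il7r*.

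The partner chains, all 8 of which were tested, form complete receptors with members, except *Csf2rb2*, which was listed as the paralog of *Csf2rb*. *Il2rb*, the signaling chain of the IL-2 receptor, was low, at 1.14 ± 0.518 RPKM in resting WT, 1.89 ± 1.08 with anti-IgM and 0.958 ± 0.626 with LPS (SD, n = 3), beside the 8.74 to 75.9 RPKM of *Il2ra*. *Il2rb* was called in neither stimulus against rest, at 0.71 (adjusted p = 0.17) in WT and 0.81 (adjusted p = 0.12) in Ubqln1-/- with anti-IgM; with the replicate block these were 0.71 (adjusted p = 0.039) and 0.77 (adjusted p = 0.024). *Il15ra*, the IL-15-binding chain, rose from 1.45 ± 0.0819 RPKM to 3.32 ± 0.539 with anti-IgM and 4.28 ± 0.625 with LPS in WT, by 1.19 and 1.57 on the log2 scale (adjusted p = 1.1e-05 and 5.9e-07), and also rose in Ubqln1-/-, by 0.87 and 1.25.

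*Il6st*, the signaling chain for IL-6, went opposite ways with the stimuli. It was at 14.2 ± 0.605 RPKM in resting WT, rose to 17.4 ± 1.62 with anti-IgM (log2 0.29, adjusted p = 0.0059) and fell to 8.51 ± 0.742 with LPS, by 0.74 (adjusted p = 1.1e-06); in Ubqln1-/- the changes were 0.33 and −0.75. *Il10rb*, the second chain for IL-10, stayed within 33.0 to 43.9 RPKM in group means and fell with both stimuli, by 0.25 and 0.32 in WT and 0.31 and 0.36 in Ubqln1-/-. The WT decrease with anti-IgM was not called without WT anti-IgM replicate 1 (−0.17, adjusted p = 0.10) or WT resting replicate 2 (−0.20, adjusted p = 0.074). The common beta chain gene *Csf2rb* was at 9.62 ± 1.09, 9.43 ± 4.04 and 10.1 ± 1.35 RPKM in WT and was not called with either stimulus. Its paralog *Csf2rb2*, whose near-identical sequence could share reads with it, rose with LPS by 0.99 in WT and 0.82 in Ubqln1-/-.

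*Crlf2*, which pairs with the *Il7r* chain for TSLP, was at 37.0 ± 1.29 RPKM in resting WT, 44.5 ± 6.84 with anti-IgM and 30.1 ± 3.35 with LPS, and was lower with LPS than with anti-IgM (log2 difference −0.57, adjusted p = 0.0030). With anti-IgM it rose in Ubqln1-/- (0.32, adjusted p = 0.044; up to 0.17 on leaving out single libraries) and stood at 0.27 in WT (adjusted p = 0.089; with the block 0.25, adjusted p = 0.011). With LPS it was at −0.30 in WT (adjusted p = 0.059) and −0.24 in Ubqln1-/- (adjusted p = 0.14), and with the block −0.31 and −0.23 (adjusted p = 0.0028 and 0.022). *Il13ra1*, which pairs with the *Il4ra* chain outside lymphocytes, did not exceed a mean of 0.267 RPKM in any group. Of the 8 chains, 2 rose and 1 fell with anti-IgM in WT, and 2 rose and 2 fell with LPS. With the replicate block these counts were 4 and 1, and 2 and 3. Of all genes 32.4% rose and 32.2% fell with anti-IgM in WT, and 31.2% and 30.1% with LPS. With the block these shares were 35.1% and 34.9%, and 34.0% and 34.0%.

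**Figure D4:**
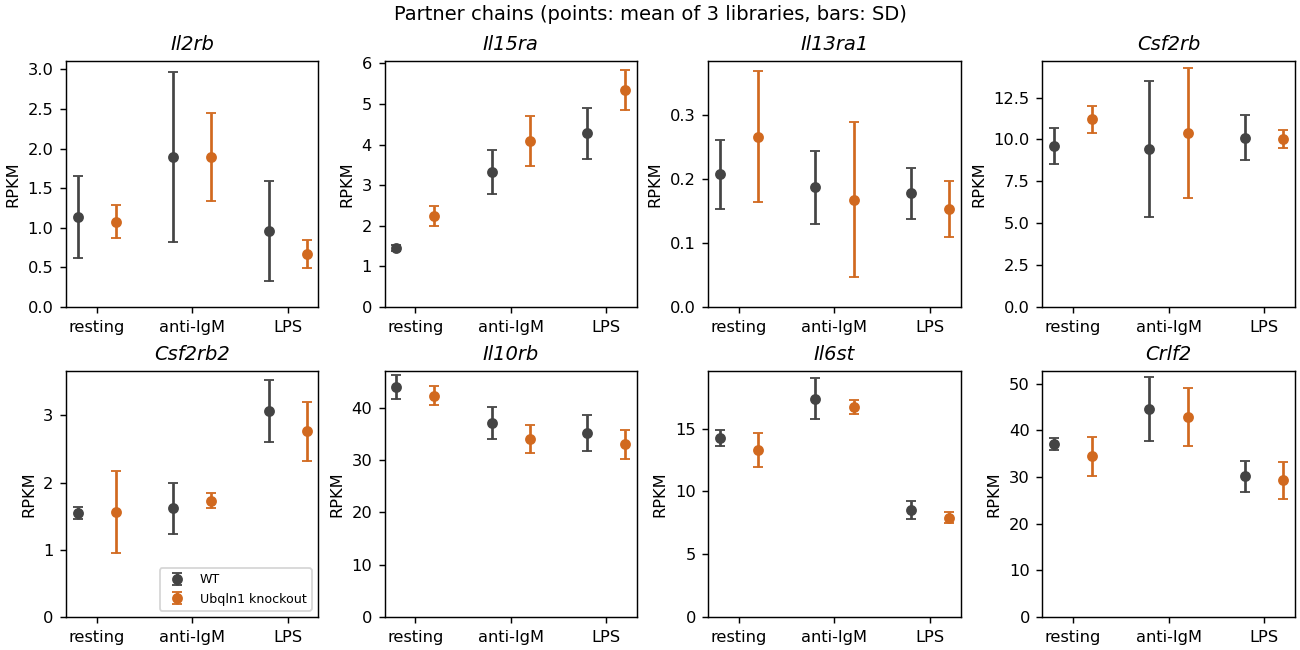
RPKM (linear axes from 0) of 8 partner chains by condition, WT in gray and Ubqln1-/- in orange; points are means of 3 libraries and bars the SD. *Il15ra* rises with both stimuli, and *Il6st* drops to 8.51 RPKM with LPS in WT.

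Downstream of the receptors, the 11 JAK and STAT genes were all tested. With anti-IgM 2 rose (*Stat5a* and *Stat6*) and 8 fell (among them *Stat2* and *Stat4*) in each genotype, with a median log2 fold change of −0.54 in WT beside −0.0096 over all genes. Of all genes, 32.4% rose and 32.2% fell with anti-IgM in WT, and 32.9% and 32.4% in Ubqln1-/-. *Stat2*, of the interferon response, fell by 1.17 in WT and 1.04 in Ubqln1-/-, and *Stat4* by 0.95 and 1.08. *Stat5a*, which acts below IL-2 and IL-7 receptors, rose by 0.92 and 1.03 with anti-IgM and by 1.05 and 1.06 with LPS. With LPS 4 rose and 2 fell in WT and 3 rose and 3 fell in Ubqln1-/-. Among those that rose were *Stat6*, the mediator of IL-4 signals, at 0.67 and 0.66, and *Stat3* at 0.53 and 0.44. The *Stat3* call in Ubqln1-/- was lost by edgeR without Ubqln1-/- LPS replicate 3 (0.32, adjusted p = 0.12). It was also lost without Ubqln1-/- resting replicate 1 or 2 (0.38 and 0.42, adjusted p = 0.0915 and 0.065). With all libraries and the replicate block it was kept. The shares of all genes with LPS were 31.2% higher and 30.1% lower in WT, and 30.6% and 30.2% in Ubqln1-/-. *Stat3* was not called with anti-IgM, and with the replicate block it was at 0.31 in WT (adjusted p = 3.6e-05) and 0.29 in Ubqln1-/- (adjusted p = 7.4e-05), which made 3 higher and 8 lower. Of all genes the block called 35.1% higher and 34.9% lower with anti-IgM in WT, and 35.4% and 35.3% in Ubqln1-/-. The block also called *Stat2* lower with LPS in WT (−0.24, adjusted p = 0.0044), so that 3 fell in each genotype, against 34.0% and 33.6% of all genes.

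Of 10 STAT targets and feedback genes, 2 rose and 4 fell with anti-IgM in WT and 2 rose and 5 fell in Ubqln1-/-, and with LPS 7 and 6 rose and 0 fell, with 7 of 10 at an unadjusted p under 0.05 in each genotype, against 64.7% and 64.4% of all genes. At the adjusted threshold 32.4% of all genes rose and 32.2% fell with anti-IgM in WT, and 32.9% and 32.4% in Ubqln1-/-. The shares with LPS were 31.2% and 30.1% in WT and 30.6% and 30.2% in Ubqln1-/-. With the replicate block 2 rose and 6 fell with anti-IgM in each genotype, *Pim2* being called at −0.57 in WT (adjusted p = 8.4e-05) and −0.55 in Ubqln1-/- (adjusted p = 1.1e-04) and *Socs1* at −0.39 in WT (adjusted p = 0.022). The block called 35.1% of all genes higher and 34.9% lower with anti-IgM in WT, and 35.4% and 35.3% in Ubqln1-/-. With LPS the block called *Bcl2* (−0.20, adjusted p = 0.028) and *Socs1* (−0.40, adjusted p = 0.018) lower in Ubqln1-/-. *Bcl2l1*, which encodes the survival factor BCL-XL, rose with anti-IgM by 1.84 in WT and 1.86 in Ubqln1-/- and with LPS by 3.78 and 3.86. *Bcl2* fell with anti-IgM by 1.48 and 1.27. *Socs3*, an inhibitor of cytokine signaling, fell with anti-IgM by 1.95 and 1.79. The kinase genes *Pim1* and *Pim2* rose with LPS by 2.32 and 1.75 in WT and 2.33 and 1.70 in Ubqln1-/-. Genes of these lists also respond to pathways other than cytokine receptors.

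Of 11 ligand genes 3 passed the filter, *Il6*, *Il10* and *Il15*. All 3 rose with LPS in each genotype, against 31.2% of all genes in WT and 30.6% in Ubqln1-/-. With anti-IgM 0 were called, 0 of 3 also at an unadjusted p under 0.05, against 67.6% and 67.9% of all genes. *Il6* went from 0.162 ± 0.120 RPKM in resting WT to 5.94 ± 2.65 with LPS (log2 5.25 in WT and 5.11 in Ubqln1-/-), *Il10* from 3.17 ± 1.08 to 14.9 ± 1.28 (2.19 and 2.20) and *Il15* from 0.334 ± 0.129 to 1.25 ± 0.211 (1.82 and 1.49). With LPS, cells thus had raised *Il10* and resting levels of *Il10ra*, and raised *Il6* beside lower *Il6st*.

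Genes with the most similar pattern were taken as the 3 with the highest Pearson's r of log2 CPM over 18 libraries, among 9053 genes. *Il10ra* was closest to *Icosl* (0.993), *Rab8a* (0.991) and *Ifngr1* (0.990), and *Il4ra* to *Gimap5* (0.976), *Gimap8* (0.966) and *Gimap4* (0.962), small GTPases of lymphocytes. *Il2ra* was closest to *Josd1* (0.985), *Elp5* (0.984) and *Rpp38* (0.983), and *Il21r* to *Rab8b* (0.966), *Nfkbia* (0.966) and *Il10* (0.964). *Il7r* went with *Dusp14* (0.950), *Pacs2* (0.946) and *Usp28* (0.945), and *Il2rg* with *Ift140* (0.970), *Chst10* (0.958) and *Bcl2a1b* (0.953). *Il9r* was closest to *LOC100862431* (0.980), *Ly6a* (0.979) and the MHC class I gene *H2-D1* (0.978). *Il5ra* was closest to *Ensa* (0.971), *Wnt10a* (0.884) and *Nfatc2ip* (0.884), and *Il6ra* to *Plbd1* (0.933), *Map4k3* (0.933) and *COX1* (0.925). Over the 6 group means instead, the 3 genes nearest to *Il9r* stayed the same, 1 of 3 stayed for *Il7r*, and 0 of 3 stayed for the other 7.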

How the data were processed

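RNASeq was done on 18 libraries of splenic B cells. Per the file headers and the study's methods, reads were mapped by GSNAP (GRCm38), and the authors deposited, for every Entrez gene, a raw exonic read count, the gene width in bases and an RPKM value. The counting program is not given in the sources used here, and the library kit does not mark strand. The deposited RPKM was 0.833 to 0.902 of the RPKM computed here. Symbols came from RefSeq, which named 25035 of 28096 genes.

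Counts were fitted with edgeR 4.0.16 in R 4.3.3 (TMM, filterByExpr, quasi-likelihood test, 1 term for each of 6 groups, 18 libraries), with Benjamini-Hochberg adjustment over 14161 genes. The SE is the log2 fold change divided by the square root of F. The biological coefficient of variation was 10.1%. The study used limma with voom, here run as an alternative (3.58.1), as was DESeq2 1.42.0. Scripts were tested on simulated data.

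All 9 receptors and all tested partner chains are named, with at most 3 genes per other list and stimulus, those with the largest change in WT called the same way in both genotypes at a mean of at least 1 RPKM. *Stat6*, named by this rule for LPS, is also named with anti-IgM. Marker genes, and list genes whose call changed with the replicate block, were named after their values were seen. The 9 receptors and the lists were chosen with earlier results of these data known.

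The labels number only replicates 2 and 3, so the rest were numbered 1 by elimination. Deviations from group means of same-numbered libraries correlated between groups (mean r = 0.266, 0.055 to 0.516, 43 of 45 pairs over 0.1), with every pair over 0.1 in 8 of the 9 two-group comparisons and not in Ubqln1-/- against WT at rest. The blocked value is therefore given where it changes the call of a receptor, a partner chain or a signaling gene against rest. The study's design text calls the libraries biological replicates. For its RNASeq values of *c-Myc* and *Ccnd2* the paper gives 3 independent experiments and a paired t-test. It does not state which libraries belong to the same experiment.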

Additional observations from a re-analysis of the deposited data

How the results depend on the processing

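No receptor result changed sign where it was called. Requiring a log2 fold change over 1 as well left 4 receptors with anti-IgM in WT (20.6% of all genes passed), 4 in Ubqln1-/- (20.3%), 2 with LPS in WT (15.8%), 1 in Ubqln1-/- (15.9%), and 3 and 3 between the stimuli (9.42% and 8.73%). For LPS against rest in Ubqln1-/- the count was 5 with the replicate block and 6 with only the groups compared, against 3. For Ubqln1-/- against WT with anti-IgM it was 1 (*Il9r*) with DESeq2 and 1 with the replicate block, against 0. Leaving out single libraries gave 3 to 6 for LPS against rest in WT. Apart from the blocked values in the report, the block changed the call of *Il2rb* between stimuli in WT (−0.98, adjusted p = 0.0087) and of *Il15ra* between stimuli (0.38 in WT, adjusted p = 0.047, and 0.39 in Ubqln1-/-, adjusted p = 0.041), and no other call of a receptor or partner chain. Over all genes, Ubqln1-/- against WT gave 8, 14 and 6 genes at rest, with anti-IgM and with LPS; DESeq2 gave 32, 47 and 51, the replicate block 49, 94 and 125, and only the groups compared 5, 2 and 2. The causes were not tested. Single-library changes of *Il7r* rest on 37 to 61 counts per resting WT library, which limits its precision.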

Other observations

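Of 24 other interleukin receptor genes 12 passed the filter on low counts. With anti-IgM 5 rose and 4 fell in each genotype, and with LPS 3 rose and 3 fell in WT and 2 rose and 4 fell in Ubqln1-/-. Of all genes 32.4% rose and 32.2% fell with anti-IgM in WT, and 32.9% and 32.4% in Ubqln1-/-. The shares with LPS were 31.2% and 30.1% in WT and 30.6% and 30.2% in Ubqln1-/-. With the replicate block *Il20rb* was also called higher with LPS in both genotypes (0.42 and 0.51) and *Il3ra* lower in Ubqln1-/- (−0.44). *Il1r2*, the decoy receptor for IL-1, rose with anti-IgM from 5.06 ± 0.924 to 18.7 ± 1.85 RPKM in WT (SD, n = 3; log2 1.87, and 1.91 in Ubqln1-/-) and less with LPS (0.63 and 0.51). *Il1r1*, the signaling receptor for IL-1, was at 0.0834 ± 0.0504 RPKM at rest and 3.48 ± 1.78 with anti-IgM (log2 5.27 and 5.11), and at 0.0630 ± 0.0272 with LPS. *Il27ra*, the IL-27 receptor, fell with anti-IgM by 1.06 and 1.00, and *Il17ra*, a receptor chain for IL-17, fell with LPS by 0.62 and 0.51. *Il1rap*, the partner of *Il1r1*, rose with LPS by 0.80 and 0.64.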
